A study of Mus musculus with 4 samples.

Results

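The nuclear genes of mitochondrial oxidative phosphorylation were taken from each expression file by gene symbol. A symbol was kept if it began with Nduf followed by a, b, c, s or v, with Uqcr, with Cox followed by 4 to 8, or with Atp5, or if it was Sdha, Sdhb, Sdhc, Sdhd, Cyc1, Cycs or Cyct. These patterns found 95 of 24411 genes. They hold 36 genes of complex I, 4 of complex II, 9 of complex III, 2 for cytochrome c, 19 of complex IV and 15 of complex V. The other 10 are assembly factors or genes that share only the name of a subunit. Subunits encoded by the mitochondrial genome do not match these patterns and were not analysed here.

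RNA-seq was carried out on male germ cells from testes of mice at postnatal day 18. There were 2 control samples, labelled Zfp541+/-, and 2 samples labelled Zfp541 KO. All 4 came from mice with a Rec8-3xFLAG-HA-p2A-GFP knock-in, which links GFP to production of REC8, a cohesin subunit of meiotic cells, and GFP-positive cells were sorted to enrich for meiotic prophase. The knock-in was heterozygous in 1 control testis and homozygous in the other control testis and in both testes labelled KO, and the labels do not say which control was which, so knock-in dose and Zfp541 genotype cannot be told apart fully. The KO allele is a CRISPR/Cas9 deletion of most of the Zfp541 gene, and the controls carry 1 copy of it. The strain is labelled C57BL/6 and CBA mixed, whereas the methods give a C57BL/6 background. Each sample was 1 testis, and expression was given as TPM (transcript abundance scaled for transcript length and to the same total in each library), which keeps no sequencing depth.

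Oxidative phosphorylation passes electrons from NADH through complex I, or from succinate through complex II, to ubiquinone, then through complex III and cytochrome c to complex IV, which reduces oxygen. Complexes I, III and IV pump protons across the inner mitochondrial membrane, and complex V, the ATP synthase, uses the returning flow to make ATP. In the testis, several small subunits of complex IV and cytochrome c exist as isoforms that are made mainly in germ cells from meiosis onwards, beside the widely expressed form.

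Zfp541, the targeted gene, was measured at 112 and 72.2 TPM in control 1 and 2 and at 136 and 151 TPM in the KO-labelled libraries (1 and 2). Its transcript level thus did not separate the genotypes in the direction of a loss, so the libraries are named below by their labels. At other ages, the paper reports ZFP541 protein absent from KO testis extract by immunoblot and diminished in KO tubules by immunostaining. Rec8, which drives the sorted GFP, was at 7.05 and 27.8 TPM in the controls against 27.7 and 19.4 TPM in the KO-labelled libraries. Summed TPM over 8 pachytene and diplotene markers (among them Ldhc, Piwil1 and Pgk2) was 6324 and 2952 in the controls against 2053 and 2886 in the KO-labelled libraries. Of the 8, 5 were lower without overlap between the groups, beside 12.1% of all genes that averaged 1 TPM or more. Piwil1, Hspa2 and Hist1h1t overlapped. The sum over 6 leptotene and zygotene markers (among them Sycp3 and Hormad1) was 1920 and 2378 in the controls against 3846 and 4000 in the KO-labelled libraries. Of the 6, 5 were higher without overlap, beside 38.6% of all genes that averaged 1 TPM or more. The 5 Leydig cell markers summed to 2873 and 18.0 TPM in control 1 and 2 and to 324 and 491 TPM in the KO-labelled libraries, and the 4 macrophage markers to 1568 and 15.2 against 1286 and 924 TPM. Sertoli markers lay between 708 and 1058 TPM, spermatogonial markers between 254 and 789 TPM, and peritubular and endothelial markers between 10.4 and 15.6 TPM in the 4 libraries. Red blood cell markers lay between 18.7 and 64.1 TPM. Spermatid markers summed to 17.5 and 13.9 TPM in the controls against 28.7 TPM in each KO-labelled library. Among them Spaca1 was at 7.34 and 13.9 against 27.0 and 26.6 TPM, and Prm1 was listed at 0 in 3 of the 4. In sorted bulk cells, fewer cells of a type and less RNA per cell cannot be told apart, and the part of these marker differences in the values that follow was not tested.

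Oxidative phosphorylation genes were abundant in these germ cells. Of the 95 genes, 77 were above 100 TPM in all 4 libraries, and together they took 3.18% and 4.63% of all TPM in control 1 and 2 and 3.05% and 3.12% in the KO-labelled libraries (1 and 2). The summed level was 31763 and 46350 TPM in the controls against 30481 and 31211 TPM in the KO-labelled libraries, or 39056 ± 10315 against 30846 ± 516 TPM (mean ± SD, n = 2 each). Control 1 thus lay close to both KO-labelled libraries, and control 2 stood above all 3. Control 2 was the highest library for 74 of the 95 genes and the lowest for 9.

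**Figure D1:**
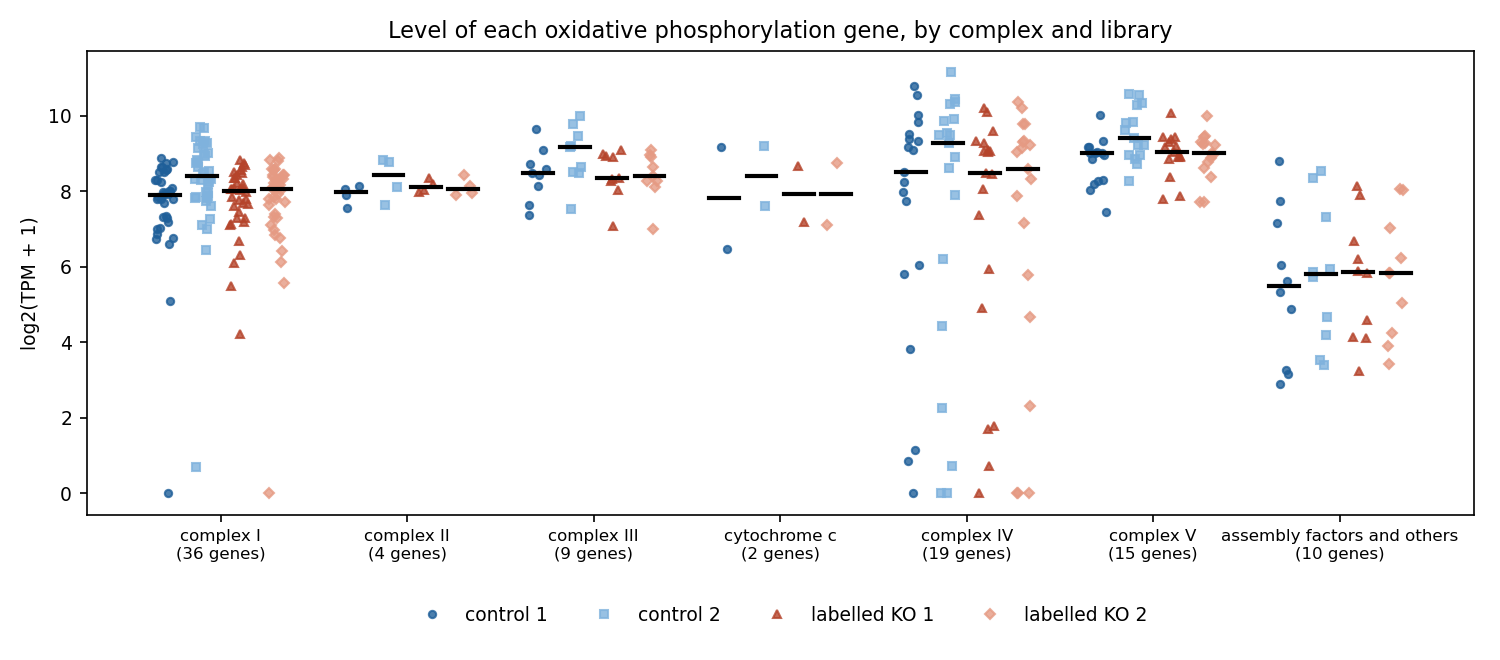
Level of each of the 95 genes on the log2(TPM + 1) scale, grouped by complex, with 1 point per gene and library and a black bar at the median of each library. The median of control 2 (light blue squares) is the highest of the 4 libraries in each of complexes I to V, and the points near 0 in complexes I and IV are Ndufs5, Cox4i2, Cox6a2 and Cox8b.

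For the comparison of the KO-labelled libraries with the controls, limma was run over the 14512 genes that averaged 1 TPM or more, on log2(TPM + 1), a scale that understates the change of low genes. Of the 95 genes, 92 passed this filter, and Cox4i2, Cox6a2 and Cox8b did not. None of the 92 passed an FDR of 0.05 (smallest adjusted p = 0.319, Cox6b2), and neither did any of all genes tested (0%, smallest adjusted p = 0.310). At an unadjusted p under 0.05 in limma, 7 of the 92 were lower and 0 were higher in the KO-labelled libraries, against 3.73% lower and 10.7% higher of all genes. The 7 are Cox6b2, Ndufaf3, Uqcrq, Cox8c, Ndufb11, Ndufb4 and Cox8a. An exact two-sided permutation test of 2 against 2 samples cannot give a p under 0.33, so the values below are descriptions unless a test is named. All p-values here measure the spread between single testes.

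For 33 of the 92 genes (35.9%) both KO-labelled libraries were below both controls, against 12.1% of all genes, and for 6 (6.52%) both were above, against 38.6% of all genes. The median log2 difference was -0.24 over the 92 genes and 0.28 over all genes tested. This separation rested on control 2. Against control 1, both KO-labelled libraries were lower for 37 and higher for 44 of the 92, beside 36% lower and 52.9% higher of all genes. Against control 2, both were lower for 77 and higher for 10, beside 25% lower and 65.8% higher. For 70 of the 92 genes the distance between the 2 controls exceeded that between the group means, beside 8934 of all 14512 genes tested. Control 2 was above control 1 for 80 of the 92, beside 4882 of all 14512. The median of control 2 minus control 1 was 0.59 on the log2 scale, where that of all genes was -0.36.

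Leaving out 1 control changed what passed the test. Without control 1, limma called 57 of the 92 genes lower and 4 higher at an FDR of 0.05, against 9.47% lower and 38.7% higher of all genes. Without control 2 it called 9 lower and 10 higher, against 12.9% and 15.5%. In both fits the spread came from the pair labelled KO alone, and the lone control was assumed to vary like it. The genes also have short transcripts, with a median of 944.5 nt against 2935 nt for all genes tested. After each library was corrected for transcript length, 12 of the 92 genes were lower and 26 higher without overlap, beside 10.5% lower and 39.5% higher of all genes. After median-ratio scaling between libraries, which moved the median of all genes from 0.28 to -0.01, 53 were lower and 2 higher, beside 22.8% lower and 22.6% higher.

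**Figure D2:**
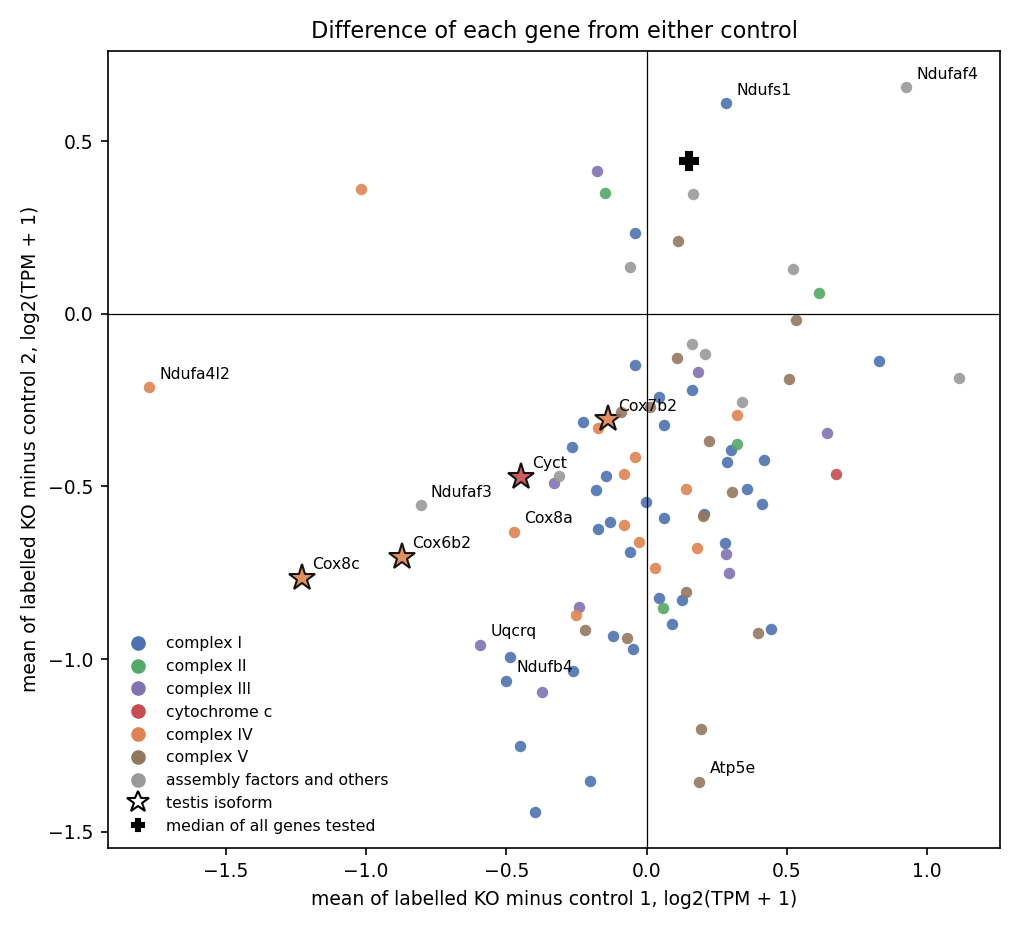
Each point is 1 of the tested genes that were above 0 in every library, placed by the difference between the mean of the KO-labelled libraries and control 1 (horizontal axis) and control 2 (vertical axis), both on the log2(TPM + 1) scale. Most genes lie below the horizontal line and on both sides of the vertical one, and the 4 testis isoforms (stars) lie to the lower left, below both controls.

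The 4 testis isoforms were lower in both KO-labelled libraries than in either control (100%, beside 12.1% of all genes). For each of them the controls differed from each other by less than the groups did, whereas they differed by more for 8934 of all 14512 genes tested. Their summed level was 4018 and 3506 TPM in the controls against 2132 and 2535 TPM in the KO-labelled libraries (3762 ± 362 against 2333 ± 284 TPM, mean ± SD, n = 2 each). The median log2 difference of the 4 was -0.71 and -0.61 against control 1 and -0.64 and -0.49 against control 2, and the controls differed by a median of -0.07. The summed pachytene and diplotene markers given above were also lower in both KO-labelled libraries, but control 2 (2952 TPM) and KO 2 (2886 TPM) were nearly level. The part of these markers in the difference of the testis isoforms was not tested. None of the 4 passed the FDR. Of the 4, Cox6b2 and Cox8c were lower at an unadjusted limma p under 0.05, beside 3.73% lower of all genes.

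Cox8c encodes the testis form of subunit VIII of cytochrome c oxidase, and lies at chr12:102899306-102900534 (GRCm38.p6). It was at 1759 TPM in control 1, 1274 in control 2, 644 in KO-labelled library 1 and 873 in KO 2. Both KO-labelled libraries were below both controls, and the log2 difference of -0.997 (SE 0.33) had a limma adjusted p of 0.324. Without control 1 the difference was -0.76 (limma adjusted p = 0.0566) and without control 2 it was -1.23 (adjusted p = 0.0364).

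Cox6b2, at chr7:4751792-4753094, encodes the testis form of subunit VIb, which sits on the intermembrane side of complex IV beside the site where cytochrome c binds. Its level was 1046 and 929.8 TPM in the controls against 544 and 598 TPM in the KO-labelled libraries (1 and 2). The libraries of each group lay near each other, and the log2 difference was -0.79 (SE 0.23, limma adjusted p = 0.319). It was -0.70 without control 1 (limma adjusted p = 0.0172) and -0.87 without control 2 (adjusted p = 0.0264).

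Cyct, at chr2:76353942-76360453, encodes the testis cytochrome c, the soluble electron carrier between complexes III and IV. Its level was 573 and 584 TPM in the controls against 409 and 432 TPM in the KO-labelled libraries, a log2 difference of -0.46 (SE 0.20, limma adjusted p = 0.382). The libraries of each group again lay close together. The difference was -0.47 without control 1 (limma adjusted p = 0.0276) and -0.45 without control 2 (adjusted p = 0.0504). Cox7b2, at chr5:71442823-71548205, encodes a testis form of subunit VIIb and was at 639.65 and 718 TPM in the controls against 535 and 631 TPM in the KO-labelled libraries. Control 1 and KO 2 were nearly level for it, and its log2 difference of -0.22 (SE 0.23) was no larger than its error. After correction for transcript length the difference of Cox7b2 was 0.10, that of Cyct -0.11, that of Cox6b2 -0.46 and that of Cox8c -0.71.

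Of the widely expressed partners of these isoforms, Cox8a was likewise lower in both KO-labelled libraries than in either control, and the others were not. Cycs, the somatic cytochrome c, was at 87.4 and 194 TPM in the controls against 144 and 137 TPM in the KO-labelled libraries, between the controls. Cox6b1 was at 254 and 395 against 267 and 233 TPM, with control 2 alone high. Cox8a was at 213 and 237 against 164 and 142 TPM, lower in both KO-labelled libraries, with a log2 difference of -0.55 (SE 0.19, limma adjusted p = 0.332). Cox7b, an X-linked gene, was at 55.6 and 20.7 against 29.3 and 24.7 TPM, with control 1 alone high.

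The testis isoform made up most of each pair in every library, and its share did not separate the groups in any of the pairs. Cyct was 86.8% and 75.1% of the summed TPM of Cyct and Cycs in the controls against 74.0% and 76.0% in the KO-labelled libraries. Cox6b2 was 80.4% and 70.2% of its pair in the controls against 67.1% and 71.95% in the KO-labelled libraries. Cox8c was 89.2% and 84.3% against 79.7% and 86.0%. For these 3 pairs control 1 held the highest share, and control 2 lay within the range of the KO-labelled libraries. Cox7b2 was 92.0% and 97.2% of its pair in the controls against 94.8% and 96.2% in the KO-labelled libraries, where control 1 was the lowest.

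**Figure D3:**
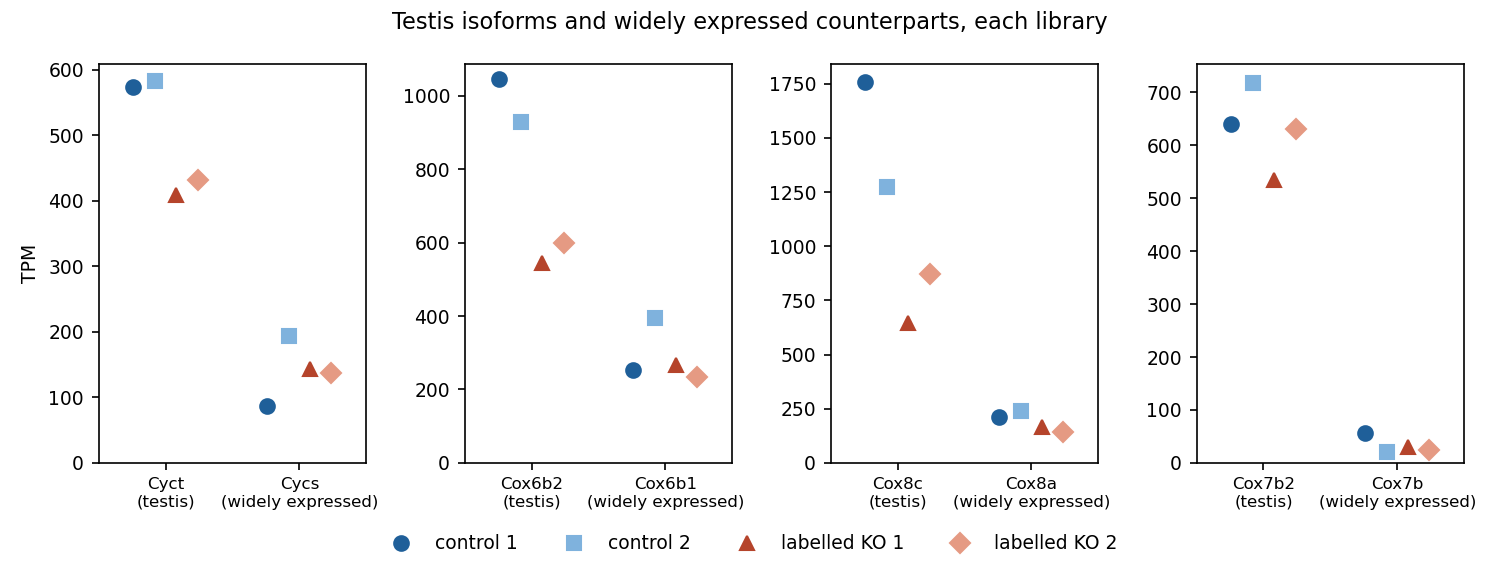
TPM of the 4 testis isoforms and their widely expressed counterparts in each library, with 1 panel per pair and a vertical axis from 0 that differs between panels. For Cox8c, Cox6b2 and Cyct both controls (blue) lie above both KO-labelled libraries (red), while both KO-labelled libraries lie between the controls for Cycs and Cox7b.

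The 250 bases before the start of Cyct, Cox6b2, Cox7b2, Cycs and Cox6b1 are shown on the gene's own strand. Those of Cox7b and of Cox8a, which was also below both controls, are not shown, so these sequences do not compare expression pattern with motif content. The sequences are from RefSeq on GRCm38.p6. All 95 genes have a RefSeq position, but only 78 had an entry in the set of promoter sequences used, Cox8c not among them. Capitals mark matches, on either strand, to 5 short motifs, namely CATGCGC (part of an NRF1 site), CCGGAAG (an ETS core, bound by GABPA among others), TGACGTCA (the cAMP response element, CRE), AAGATGGC (YY1) and CCAAT (the CCAAT box). NRF1, GABPA and YY1 are known regulators of nuclear genes for respiratory subunits.
Cyct, chr2:76360454-76360703, minus strand: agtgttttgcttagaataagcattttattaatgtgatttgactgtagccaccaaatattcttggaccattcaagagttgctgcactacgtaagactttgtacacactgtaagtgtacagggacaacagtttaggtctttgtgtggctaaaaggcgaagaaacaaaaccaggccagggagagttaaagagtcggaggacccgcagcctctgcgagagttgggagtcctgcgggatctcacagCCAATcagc
Cox6b2, chr7:4753095-4753344, minus strand: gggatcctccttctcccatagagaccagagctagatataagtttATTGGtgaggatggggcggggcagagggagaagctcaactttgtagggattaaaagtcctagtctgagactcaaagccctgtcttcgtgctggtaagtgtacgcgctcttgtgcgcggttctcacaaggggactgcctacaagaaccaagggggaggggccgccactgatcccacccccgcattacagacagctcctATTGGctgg
Cox7b2, chr5:71548206-71548455, minus strand: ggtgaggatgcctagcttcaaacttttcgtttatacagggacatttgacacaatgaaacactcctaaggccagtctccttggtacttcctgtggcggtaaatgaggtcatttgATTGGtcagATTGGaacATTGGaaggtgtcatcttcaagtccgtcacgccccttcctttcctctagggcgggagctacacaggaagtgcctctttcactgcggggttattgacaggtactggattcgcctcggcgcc
Cycs, chr6:50566570-50566819, minus strand: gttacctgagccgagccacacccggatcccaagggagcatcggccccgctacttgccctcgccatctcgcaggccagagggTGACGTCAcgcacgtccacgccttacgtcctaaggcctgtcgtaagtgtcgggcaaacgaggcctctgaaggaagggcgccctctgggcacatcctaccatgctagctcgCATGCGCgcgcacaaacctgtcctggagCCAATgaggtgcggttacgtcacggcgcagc
Cox6b1, chr7:30626115-30626364, minus strand: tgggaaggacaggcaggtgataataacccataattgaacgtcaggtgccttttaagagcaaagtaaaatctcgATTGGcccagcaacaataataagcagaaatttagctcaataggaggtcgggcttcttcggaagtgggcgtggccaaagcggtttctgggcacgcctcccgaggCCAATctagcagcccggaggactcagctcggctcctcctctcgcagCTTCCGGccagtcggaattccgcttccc

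The 3 testis isoform promoters matched CCAAT only, with 1 match for Cyct, 2 for Cox6b2 and 3 for Cox7b2, where a match to CCAAT on either strand reads CCAAT or ATTGG. Cycs held 1 match each to the NRF1 motif, the CRE and CCAAT, and Cox6b1 held 1 to the ETS core and 2 to CCAAT. Over the 84 promoters of the 78 matched genes, 14.3% held the NRF1 motif, beside 3.24% of all 32851 promoters. The ETS core was in 15.5% against 6.91%, the CRE in 5.95% against 1.55%, AAGATGGC in 2.38% against 1.56% and CCAAT in 44.0% against 33.8%. Median GC content was 56.8% in these promoters and 52.4% in all. A match is a description of the letters in this window and no evidence of binding.

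Complex I, the NADH dehydrogenase, is the largest complex of the chain. Summed over its 36 genes the level was 8768 and 13623 TPM in the controls against 8714 and 8989 TPM in the KO-labelled libraries, so control 1 and both KO-labelled libraries were nearly level. Of the 36 tested, 14 were lower and 1 was higher without overlap (38.9% and 2.78%, beside 12.1% and 38.6% of all genes). The median log2 difference was -0.27, and it was -0.0091 after correction for transcript length. Among the 7 core subunits, which hold the flavin and the iron-sulphur clusters between them, 4 were lower and 1 was higher without overlap (57.1% and 14.3%, median -0.33). The higher one was Ndufs1, the largest iron-sulphur subunit, with 161 and 128 TPM in the controls against 193 and 199 TPM in the KO-labelled libraries (log2 difference 0.45, SE 0.20, limma adjusted p = 0.391). Ndufv1, which binds NADH and the flavin, was at 222 and 361 against 261 and 288 TPM, between the controls.

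The accessory subunits of complex I fall into named classes. Of the 10 Ndufb genes tested, whose products sit in the membrane arm, 6 were lower without overlap (60%, beside 12.1% of all genes). Their median log2 difference was -0.58. Of the 13 Ndufa genes of complex I tested, including Ndufab1, 3 were lower (23.1%) and none was higher (38.6% of all genes), with a median of -0.23. Ndufb2 was at 108 and 224 TPM in the controls against 78.3 and 85.5 TPM in the KO-labelled libraries, a log2 difference of -0.92 (SE 0.40, limma adjusted p = 0.382). Ndufb9 was at 472 and 823 against 355 and 335 TPM, a log2 difference of -0.85 (SE 0.34, limma adjusted p = 0.361). Ndufb4 was at 382 and 564 against 267 and 272 TPM (-0.78, SE 0.27, limma adjusted p = 0.329). In all 3 control 1 lay nearer to the KO-labelled libraries than control 2 did. Ndufb8, the most abundant gene of the complex, was at 436 and 829 TPM in the controls against 399.8 and 446 TPM in the KO-labelled libraries, so only control 2 stood apart.

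Among X-linked genes of the set, Ndufb11 and Ndufa1 encode accessory subunits of complex I. Ndufb11 was at 96.1 and 137 TPM in the controls against 67.8 and 68.7 TPM in the KO-labelled libraries, a log2 difference of -0.74 (SE 0.24, limma adjusted p = 0.324). Ndufa1 was at 222 and 435 against 413 and 378 TPM, with control 1 alone low, so the 3 X-linked genes, Cox7b included, each had their own pattern over the libraries. Ndufs5 was listed at 0 in control 1 and in KO 2, at 0.64 TPM in control 2 and at 17.5 TPM in KO 1, far from the level of the other subunits, and no fold was read from it.

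Complex II, the succinate dehydrogenase, has 4 subunits and no mitochondrially encoded one, and it also serves the TCA cycle. Its summed level was 973 and 1358 TPM in the controls against 1130 and 1115 TPM in the KO-labelled libraries, which lay between the controls. The median log2 difference of its genes was 0.04. Of the 4, 1 was higher and 0 lower without overlap (25% and 0%, beside 38.6% and 12.1% of all genes), namely Sdhd, a membrane anchor. After median-ratio scaling 0 were higher and 2 lower (0% and 50%, beside 22.6% and 22.8%). For Sdhd, control 1 and 2 had 187 and 275 TPM, and KO 1 and 2 had 292 and 280.4 TPM. KO 2 thus lay close to control 2, and the log2 difference was 0.34 (SE 0.26, limma adjusted p = 0.567). Sdha, the flavoprotein, was at 279 and 197 against 254 and 249 TPM. Sdhb, the iron-sulphur subunit, was at 239.98 and 451 against 259 and 240.2 TPM, and Sdhc, the most abundant of the 4, at 267 and 435 against 324 and 345 TPM.

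Complex III passes electrons from ubiquinol to cytochrome c. Summed over 9 genes its level was 3504 and 5075 TPM in the controls against 3370 and 3285 TPM in the KO-labelled libraries, with a median log2 difference of -0.23. Of the 9, 4 were lower and 0 higher without overlap (44.4% and 0%, beside 12.1% and 38.6% of all genes). Uqcrq, a small subunit bound to cytochrome b, was the most abundant, at 797 and 1027 TPM in the controls against 509 and 547 TPM in the KO-labelled libraries. Both controls were well above both KO-labelled libraries, and the log2 difference was -0.78 (SE 0.25, limma adjusted p = 0.322). It was -0.96 without control 1 (limma adjusted p = 0.0102) and -0.59 without control 2 (adjusted p = 0.0366). Uqcrc1, a core protein, was at 382 and 583 against 311 and 336 TPM. Uqcrfs1, the Rieske iron-sulphur protein, was at 165 and 184 against 133 and 128 TPM. Cyc1, cytochrome c1, was at 199 and 396 against 317 and 307 TPM, between the controls.

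Complex IV, cytochrome c oxidase, had a median log2 difference of -0.34 over 16 genes tested, the testis isoforms included. Of the 16, 9 were lower and 0 higher without overlap (56.25% and 0%, beside 12.1% and 38.6% of all genes). Over the 11 widely expressed genes the median was -0.33 and 5 were lower without overlap (45.5%). Their summed level was 6117 and 9197 TPM in the controls against 5906 and 6240 TPM in the KO-labelled libraries. Cox4i1, the regulatory subunit and the most abundant gene of the whole set, was at 1491 and 2295 TPM in the controls against 1179 and 1330.3 TPM in the KO-labelled libraries (log2 difference -0.56, SE 0.35, limma adjusted p = 0.499). Cox5a was at 550.04 and 714 against 539 and 531 TPM, where control 1 was nearly level with the KO-labelled libraries. Cox6a1 was at 574 and 750.0 against 525 and 563 TPM, a similar pattern. Ndufa4, first named for complex I but a subunit of complex IV, was at 304 and 476 against 349 and 321 TPM.

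Other isoforms of complex IV are known from muscle, heart or lung. Cox4i2, Cox6a2 and Cox8b were each listed at 0 in at least 2 of the 4 libraries and stayed at 2.25 TPM or less in the others. Cox7a1, the heart and muscle form of subunit VIIa, was at 65.2 and 72.8 TPM in the controls against 60.9 and 54.5 TPM in the KO-labelled libraries. It was 15.2% and 10.5% of its pair with Cox7a2 in the controls against 14.4% and 12.5% in the KO-labelled libraries, so the groups overlapped. Ndufa4l2 was at 13.2 TPM in control 1 and at 3.83, 2.46 and 4.02 TPM in control 2, KO 1 and KO 2.

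Complex V, the ATP synthase, was the complex whose summed level differed most between the controls. Its 15 genes summed to 7211 and 12232 TPM in the controls against 8146 and 7934 TPM in the KO-labelled libraries, which were above control 1 and below control 2. Of the 15 genes, 3 were lower and 1 was higher without overlap (20% and 6.67%, beside 12.1% and 38.6% of all genes), with a median log2 difference of -0.19. For 11 of the 15 both KO-labelled libraries were above control 1, beside 52.9% of all genes. For 13 of the 15 both were below control 2, beside 25% of all genes. Atp5b, the catalytic beta subunit and the most abundant of the complex, was at 1034 and 1256 TPM in the controls against 1074 and 1011 TPM in the KO-labelled libraries. Atp5a1, the alpha subunit, was at 575 and 677 against 629 and 610.3 TPM. Both of these F1 subunits were thus nearly level across the 4 libraries.

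Small genes of complex V carried much of the gap between the controls. Atp5e, the epsilon subunit, was at 517 TPM in control 1, 1509 in control 2, 579 in KO 1 and 599.9 in KO 2. Atp5k, a small membrane subunit, was at 576 and 1516 against 696 and 623 TPM, and Atp5j2, another one, at 521 and 1303 against 665 and 708 TPM. In all 3, control 2 alone was high. The c subunit, which forms the rotor ring, is encoded by Atp5g1, Atp5g2 and Atp5g3 with the same mature protein. Atp5g3 was 51.9% and 42.4% of their summed TPM in the controls against 39.5% and 46.1% in the KO-labelled libraries. Atp5g2 was 30.5% and 35.4% against 41.5% and 34.9%, and Atp5g1 was 17.5% and 22.2% against 19.0% and 19.0%, so no share separated the groups.

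**Figure D4:**
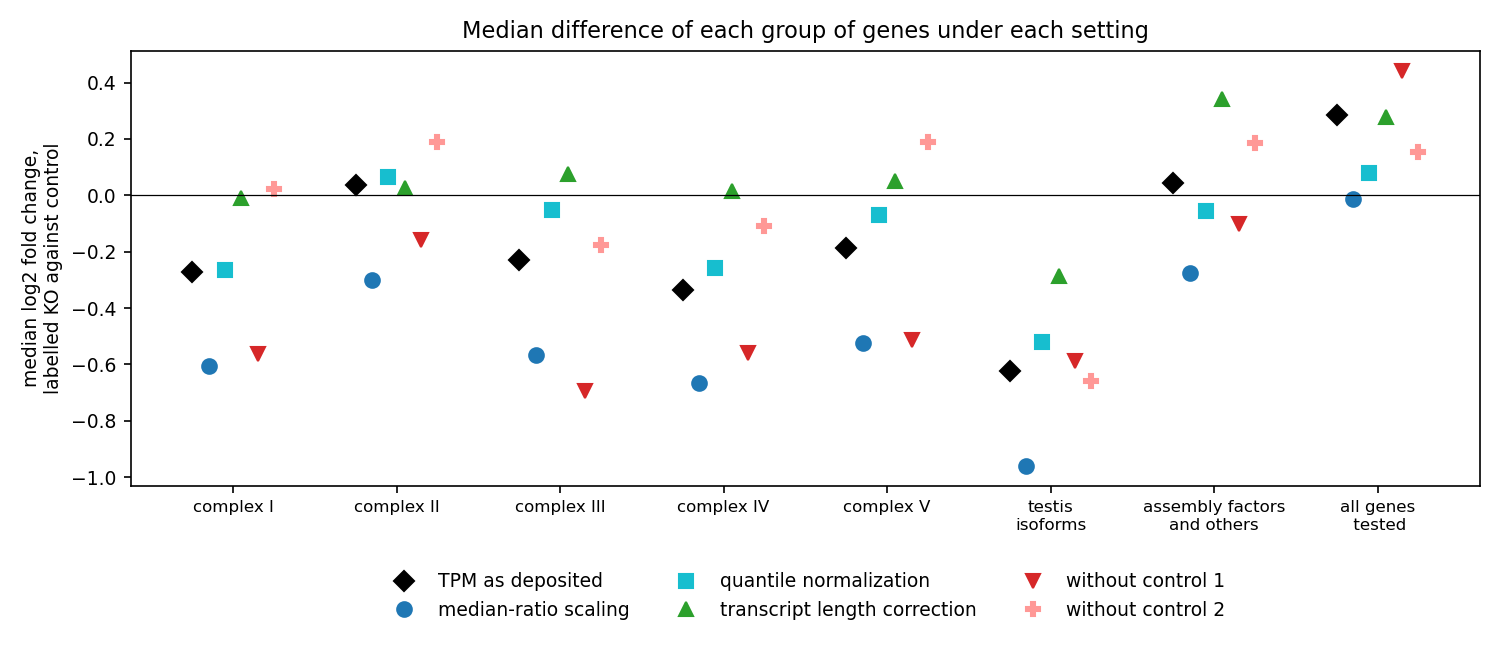
Median log2 difference between the KO-labelled libraries and the controls for each group of genes, as deposited (black diamonds) and under 5 other settings. The medians of complexes I, III, IV and V lie between -0.34 and -0.19 as deposited and come to between -0.01 and 0.08 after correction for transcript length, while that of the testis isoforms stays below 0 in all 6 settings.

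The assembly factors and other genes taken by name had a median log2 difference of 0.04, and of the 10 tested 3 were higher and 2 lower without overlap, beside 38.6% and 12.1% of all genes. Ndufaf4, a complex I assembly factor, was at 8.66 and 10.6 TPM in the controls against 16.8 and 17.9 TPM in the KO-labelled libraries, a log2 difference of 0.79 (SE 0.31, limma adjusted p = 0.362). Ndufaf1 was at 39.7 and 52.4 against 58.3 and 56.5 TPM, and Ndufaf7, a mitochondrial methyltransferase, at 65.2 and 57.4 against 72.5 and 74.0 TPM. After median-ratio scaling the difference was -0.0059 for Ndufaf1 and -0.077 for Ndufaf7. Ndufaf3 went the other way and was also the most abundant of these 10 genes, at 443 and 372 TPM in the controls against 239 and 268 TPM in the KO-labelled libraries. Its log2 difference was -0.68 (SE 0.21, limma adjusted p = 0.320), -0.55 without control 1 (adjusted p = 0.0278) and -0.81 without control 2 (adjusted p = 0.0280).

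Other genes of mitochondrial function were read from lists, and none of their genes passed an FDR of 0.05 in limma. At an unadjusted limma p under 0.05 there were 5 higher and 3 lower assembly factors, 3 lower import genes, 1 higher and 2 lower genes of the mitochondrial ribosome, and 1 higher gene each among regulators, carriers with porins, and genes of mitochondrial DNA maintenance, beside 10.7% higher and 3.73% lower of all genes. Of 41 assembly factors outside the name patterns that were tested, 16 were higher and 9 lower without overlap (39.0% and 22.0%, beside 38.6% and 12.1% of all genes), with a median log2 difference of 0.16. Tmem126b, a complex I assembly factor, was at 18.3 and 25.7 TPM in the controls against 47.6 and 48.1 TPM in the KO-labelled libraries (log2 difference 1.10, SE 0.27, limma adjusted p = 0.310). Cox15, which makes haem A for complex IV, was at 17.5 and 11.6 against 37.4 and 38.7 TPM (1.35, SE 0.31, limma adjusted p = 0.310). The 41 include Atpif1, which is the inhibitor of the ATP synthase and not an assembly factor. It is counted among the 9 lower and among the 3 lower at an unadjusted limma p under 0.05. Its level was 211 and 189 against 142 and 136 TPM. The complex III factor Uqcc2 was at 553 and 1247 against 535 and 552 TPM, with control 2 alone high.

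Of the 9 nuclear regulators of mitochondrial biogenesis tested, 7 were higher and 0 lower without overlap, beside the 38.6% and 12.1% of all genes given above, with a median log2 difference of 0.39. Gabpa was at 31.7 and 27.0 TPM in the controls against 51.1 and 48.2 TPM in the KO-labelled libraries, and Yy1 at 120.1 and 74.0 against 162 and 163 TPM. After median-ratio scaling the median of these regulators was 0.06. The 77 genes of the mitochondrial ribosome had summed levels of 6994 and 11397 TPM in the controls against 7894 and 7908 TPM in the KO-labelled libraries. Both KO-labelled libraries lay between the controls. Of the 77, 10 were higher and 20 lower without overlap (median -0.12). Among 14 genes of mitochondrial DNA maintenance and transcription 6 were higher and 1 lower (42.9% and 7.14%, median 0.14), near the shares of all genes. Among 24 genes of mitochondrial import 1 was higher and 5 lower (4.17% and 20.8%, median -0.09).

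Of 19 genes of the TCA cycle and pyruvate dehydrogenase, 4 were higher and 3 lower without overlap (21.1% and 15.8%, beside 38.6% and 12.1% of all genes), with a median of 0.01. Pdha2, the testis form of the pyruvate dehydrogenase E1 alpha subunit, was at 242 and 155 TPM in the controls against 111 and 124 TPM in the KO-labelled libraries (log2 difference -0.72, SE 0.28, limma adjusted p = 0.361). A list of 7 genes held the carriers for ADP, ATP and phosphate and the outer membrane porins Vdac1, Vdac2 and Vdac3. Of these 7, 3 were lower and 1 was higher without overlap (42.9% and 14.3%, beside 12.1% and 38.6% of all genes). The higher one was Slc25a31, the germ cell form of the ADP/ATP carrier, at 163 and 209 TPM in the controls against 313 and 297 TPM in the KO-labelled libraries (log2 difference 0.72, SE 0.21, limma adjusted p = 0.319). Germ cell forms of mitochondrial proteins thus differed in direction, with Pdha2 and the testis isoforms of the respiratory chain lower and Slc25a31 higher in both KO-labelled libraries than in either control.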

How the data were processed

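RNA-seq of GFP-positive testis cells at postnatal day 18 was analysed in 4 samples, 2 labelled Zfp541+/- and 2 labelled Zfp541 KO. The authors deposited TPM per gene, and the submitters' processing notes name Trim Galore 0.5.0, cutadapt 1.16, STAR 2.6.0a, RSEM 1.3.1 and mm10. The differential analysis with RSEM that the paper names was not repeated here. Sequencing depth, and with it the counting error, is unknown for TPM.

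Values were fitted by genotype with limma 3.58.1 in R 4.3.3, with a mean-variance trend, on log2(TPM + 1) of genes that averaged 1 TPM or more, and p-values were adjusted by Benjamini-Hochberg over all 14512 genes. The code was tested on simulated data. Other pseudocounts (0.1 and 5), filters, scalings, a replicate block, a transcript length correction (GENCODE lengths, 99.0% of genes) and leaving out each library were tried. The members and lists were chosen with earlier results of these data known.

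Genes were named by rule: the isoform pairs, a set of core subunits (1 is not reported here), the 5 largest differences each way without overlap, the most abundant gene per complex, the X-linked genes, and in each list the largest differences without overlap. Atp5e, Atp5k, Atp5j2 and Ndufs5 were described after their values were seen. Promoters were taken from RefSeq.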

Additional observations from a re-analysis of the deposited data

How the results depend on the processing

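No result passed or failed the FDR differently under another pseudocount, filter, scaling, trend, block or length correction, and of 1287 recomputed values 1104 kept their direction and size, 65 moved, 69, all of them without 1 of the controls, passed the threshold, and 49, all of single genes, changed sign. The FDR results among these are for the genes and lists described here. Over all 24411 genes, with no filter, 1 higher and 1 lower passed the FDR. Some medians among those that moved also crossed 0, as their values below show. Without 1 library each in turn, the number of genes past an FDR of 0.05 ran from 0 to 10 higher and 0 to 57 lower, and genes without overlap from 8 to 44 higher and 36 to 77 lower. The medians then ran from -0.56 to 0.021 for complex I, -0.69 to -0.16 for III, -0.56 to -0.11 for IV, -0.52 to 0.19 for V, -0.40 to -0.084 for carriers and porins, -0.47 to 0.16 for import, -0.53 to 0.25 for the mitochondrial ribosome, 0.16 to 0.28 for mitochondrial DNA maintenance and 0.30 to 0.46 for regulators, and the summed level labelled KO over control from 0.665 to 0.971. The range was -0.25 to 1.59 for Rec8 and 0.35 to 0.98 for Zfp541.

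Median-ratio scaling gave 2 genes higher and 53 lower without overlap, a summed level of 0.609, and medians of -0.58 for all members, -0.61 for complex I, -0.30 for II, -0.57 for III, -0.67 for IV, -0.52 for V, -0.51 for cytochrome c, -0.28 for assembly factors and others, -0.96 for testis isoforms, -0.17 for assembly factors outside the name patterns, -0.33 for the TCA cycle, -0.43 for import, 0.058 for regulators, -0.18 for mitochondrial DNA maintenance, -0.57 for carriers and porins, -0.45 for the mitochondrial ribosome and -0.015 for all genes. Quantile normalization gave -0.52 for testis isoforms, -0.074 for outside assembly factors, 0.13 for regulators and -0.049 for mitochondrial DNA maintenance. With no filter the median was 0.018 for all genes and -0.25 for other tissue-restricted isoforms. Length correction, alone or with the replicate block, gave 26 genes higher and 12 lower, and medians of -0.0091 for complex I, 0.017 for IV, 0.052 for V, 0.34 for assembly factors and others, -0.29 for testis isoforms, 0.31 for outside assembly factors, 0.34 for mitochondrial DNA maintenance and -0.0096 for carriers and porins. The causes were not tested.

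These signs changed. Under median-ratio scaling the log2 difference was -0.23 for Cycs, -0.18 for Atp5g2, -0.24 for Sdha, -0.19 for Cyc1, -0.0059 for Ndufaf1 and -0.077 for Ndufaf7. Under quantile normalization it was 0.0017 for Ndufv1, 0.12 for Atp5a1, 0.000133 for Atp5b and 0.057 for Sdhc. Length correction, whether blocked or not, put it at 0.098 for Cox7b2, 0.047 for Cox7a1, 0.023 for Cox7b, 0.056 for Cox6a1, 0.15 for Ndufa4, 0.16 for Atp5g3, 0.21 for Ndufv1, 0.11 for Cox5a, 0.046 for Atp5a1 and 0.081 for Atp5b. Without 1 library the values ran from -0.13 to 0.11 for Atp5a1, -0.27 to 0.011 for Atp5b, -0.52 to 0.31 for Atp5g1, -0.19 to 0.51 for Atp5g2, -0.74 to 0.031 for Cox7a2, -1.02 to 0.36 for Cox7b, -0.34 to 0.64 for Cyc1, -0.46 to 0.68 for Cycs, -0.14 to 0.83 for Ndufa1, -0.51 to 0.14 for Ndufa4, -0.40 to 0.30 for Ndufv1, -0.15 to 0.35 for Sdha, -0.85 to 0.057 for Sdhb and -0.38 to 0.32 for Sdhc.

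Over genes, the deviations of same-numbered samples correlated at -0.16. With so few libraries this cannot show whether same-numbered samples belonged together. The replicate block left 0 genes past the FDR, as did the fit without it, with 1 of the 92 genes under an unadjusted limma p of 0.05 in place of 7. A crossed pairing, chosen after seeing the data, put 7 genes higher and 80 lower past the FDR over all genes, with no gene of oxidative phosphorylation among them.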

Other observations

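A few genes of other mitochondrial functions were also apart between the groups, and none passed an FDR of 0.05 in limma. Timm8a2, of the import machinery of the intermembrane space, was at 20.6 and 25.4 TPM in the controls against 10.2 and 9.57 TPM in the KO-labelled libraries, a log2 difference of -1.14 (SE 0.30, limma adjusted p = 0.315). Tomm20l, which resembles the outer membrane receptor Tomm20, had 19.8 TPM in control 1 and 2.63 TPM in control 2 and was listed at 0 in both KO-labelled libraries. Mrpl41, of the large subunit of the mitochondrial ribosome, was at 41.3 and 53.0 against 24.4 and 26.5 TPM, whereas for Mrpl54 (164 and 362 against 125 and 131 TPM) control 2 alone was far above the rest. Sco2, a copper chaperone of complex IV, was listed at 0 in control 1 and was at 0.46 TPM in control 2, 5.27 in KO 1 and 3.79 in KO 2. Tefm, the elongation factor of mitochondrial transcription, was at 23.0 and 28.8 against 44.3 and 37.0 TPM.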
